A study of Schizosaccharomyces pombe with 6 samples.

Results

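Flocculins are cell-surface glycoproteins that allow yeast cells to stick to each other. The fission yeast Schizosaccharomyces pombe genes examined here are gsf2 (SPCC1742.01), pfl2 (SPAPB15E9.01c), pfl3 (SPBC947.04), pfl4 (SPCC188.09c), pfl5 (SPBC1289.15), pfl7 (SPBC359.04c), pfl8 (SPAC1F8.06) and pfl9 (SPAC186.01). They were chosen by a fixed list of identifiers, which holds gsf2 and most of the genes named pfl for pombe flocculin, and all 8 were found among the 7268 features of the count table. Another gene of that name, pfl6 (SPAC977.07c), is not on the list, and the counts, medians and sums over the family leave it out. RNA was compared between cpn1∆ cells, in which a hygromycin cassette replaced the gene (cpn1::HygMX6), and wild-type (WT) cells with an intact cpn1. Both strains are h+ in mating type, carry the alleles ade6-210 and leu1-32 as well as ura4-D18, and hold an ade6+ reporter in the outer repeats of a centromere (otr1R:ade6+). Each group is 1 strain with 3 biological replicates, grown to log phase at 32 °C in the rich medium YES, and the libraries were polyA-selected. Any other difference between the 2 strains cannot be told apart from the deletion.

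Flocculins sit in the outer cell wall, where they bind sugars on neighbouring cells. Gsf2 recognises galactose residues, so that cells which make enough of it gather into clumps that galactose can disperse. In rich medium fission yeast normally grows as single cells, and the genes are held low by repressors that include the Tup11, Tup12 and Ssn6 corepressors, the LAMMER kinase Lkh1 and the Cdk8 module of Mediator. The MADS-box factor Mbx2 and the CSL factor Cbf12 are known activators. Several members carry the DIPSY domain, named after a motif in its sequence, and the reference annotation describes pfl3, pfl7 and pfl9 as DIPSY family glycoproteins.

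The libraries held 28581994 to 32575216 assigned counts in cpn1∆ and 26461217 to 32916622 in WT. The deleted gene, cpn1, gave 169, 182 and 194 counts in the cpn1∆ libraries, against 7543, 8990 and 9034 in the WT libraries. Levels are given as CPM, the counts of a gene relative to a fixed library total, scaled by the trimmed mean of M-values (TMM). Differences are given as log2 fold changes (log2FC) of cpn1∆ over WT, with a standard error (SE) and an adjusted p, which is the quasi-likelihood p of edgeR after Benjamini-Hochberg correction over the 5812 features tested. A gene was called at a false discovery rate (FDR) under 0.05, and the study also required a log2FC above 1 or below -1.

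The flocculin genes did not move together in cpn1∆ cells. Of the 8 genes, 1 was higher (pfl2), 5 were lower (pfl3, pfl5, pfl7, pfl8 and pfl9) and 2 did not pass the test (gsf2 and pfl4). Over all features tested, 8.36% were higher and 10.2% were lower at the same FDR. The lower calls thus took in 62.5% of the flocculin genes, and the median log2FC of the 8 genes was -0.41, beside 0.0062 for all features. All changes were modest. None of the 8 genes (0) passed the fold threshold of the study as well, which 0.619% of all features did, and 6 of the 8 had an unadjusted p under 0.05, beside 31.4% of all features. The 3 cpn1∆ libraries lay above the 3 WT libraries for 1 gene and below them for 5, a separation seen upward in 17.3% and downward in 18.1% of all features. In bulk RNA, fewer cells with a transcript and less transcript per cell cannot be told apart.

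**Figure D1:**
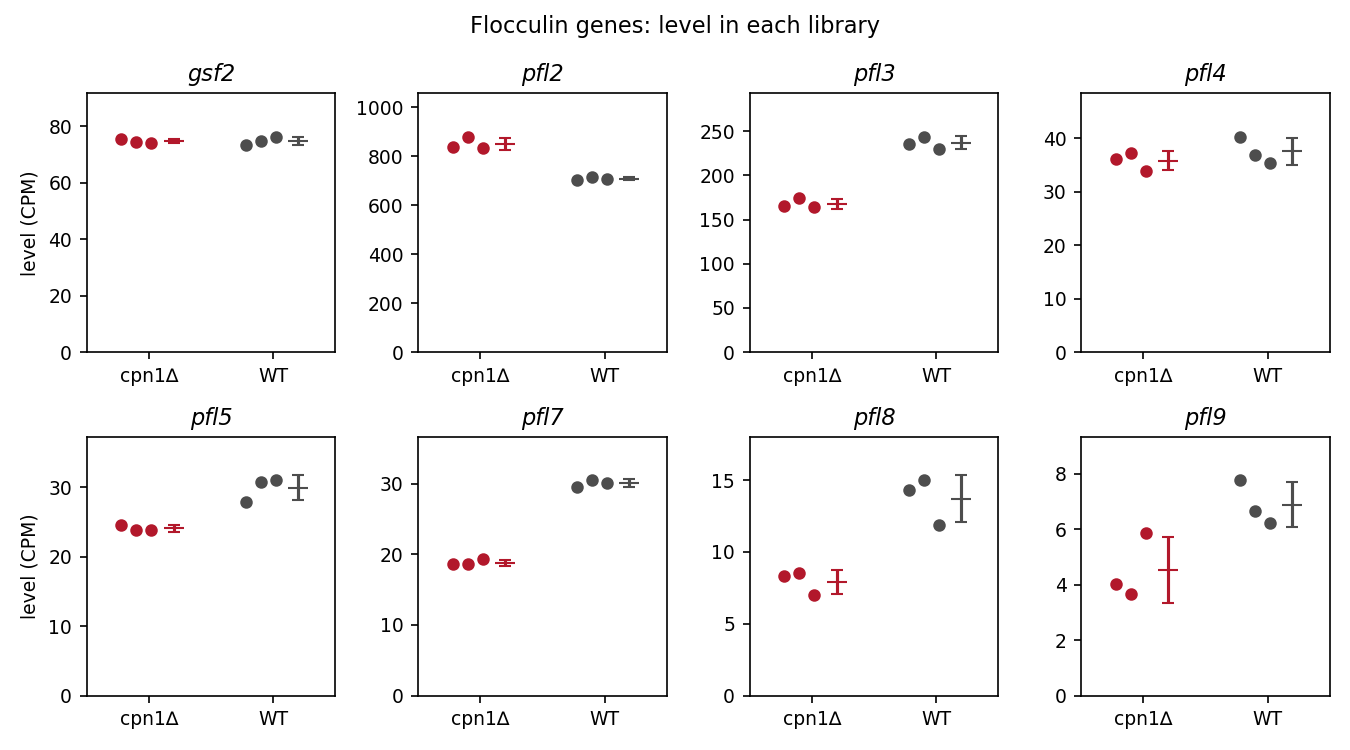
Level of each flocculin gene in CPM in every library of cpn1∆ (red, left) and WT (grey, right), with points in the order of the replicate numbers and the mean with its SD (n = 3) beside them. Each panel has its own axis from 0, and the libraries of the genotypes overlap for gsf2 and pfl4 only.

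The gene that rose, pfl2, was also the most abundant flocculin transcript. Its level was 840, 881 and 835 CPM in cpn1∆, against 702, 715 and 709 CPM in WT. Every cpn1∆ library was thus above every WT library, by a margin wider than the spread within either genotype. The means were 852 ± 25.3 CPM in cpn1∆ and 709 ± 6.11 CPM in WT (SD, n = 3 each), a log2FC of 0.27 (SE 0.03, adjusted p = 3.03e-05) or 1.2-fold. Among the 486 features called higher, 28.4% had an increase at least as large, so the size of the pfl2 change was not unusual.

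The next most abundant member, pfl3, moved in the opposite direction. It had 165, 174 and 164 CPM in cpn1∆, against 236, 244 and 230 CPM in WT. The highest cpn1∆ library lay well below the lowest WT library. Means of 168 ± 5.58 CPM in cpn1∆ and 237 ± 7.14 CPM in WT (SD, n = 3 each) gave a log2FC of -0.50 (SE 0.03, adjusted p = 2.12e-07), the smallest adjusted p of the family. Since both genes are counted in the same libraries, their ratio does not depend on the scaling. There were 5.08 ± 0.0201 pfl2 counts per pfl3 count in cpn1∆ and 3 ± 0.0801 in WT (SD, n = 3 each). The ratio in cpn1∆ was 1.7 times that in WT.

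Replicates lay close together for pfl7, which fell as well. It encodes a DIPSY family glycoprotein and had 18.6, 18.6 and 19.3 CPM in cpn1∆, against 29.5, 30.5 and 30.1 CPM in WT. The libraries of a genotype stayed within 1 CPM of each other, and the genotypes were far apart. The log2FC was -0.67 (SE 0.06, adjusted p = 2.28e-06), a level 1.6-fold lower. Only 5.38% of the 595 features called lower had a decrease at least as large.

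The largest change of the family was in pfl8, annotated as a glycoprotein. Its level was 8.31, 8.52 and 6.98 CPM in cpn1∆, against 14.3, 15 and 11.9 CPM in WT, from 228 to 267 counts in a cpn1∆ library and 379 to 471 in a WT library. In both genotypes replicate 3 was the lowest, and even that WT library was above every cpn1∆ library. The log2FC was -0.79 (SE 0.11, adjusted p = 2.51e-04), and 4.54% of the features called lower fell by at least as much. A non-coding RNA on the opposite strand, SPNCRNA.607, covers 81.8% of the annotated pfl8 transcript. Whether reads were counted by strand is not given in the sources used here, so reads from the pair may be mixed. The same doubt touches other members, since features annotated on the opposite strand in ASM294v3, many of them not in the count table, cover 78.0% of pfl2, 72.5% of pfl4, 65.3% of pfl3 and 54.1% of pfl7, and at most 11.1% of pfl5, gsf2 and pfl9. SPNCRNA.607 itself had 4.25 ± 0.181 CPM in cpn1∆ and 5.14 ± 0.825 CPM in WT (SD, n = 3 each), and its log2FC of -0.26 was not called (adjusted p = 0.237).

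A smaller decrease was measured for pfl5, also annotated as a glycoprotein. The libraries held 24.6, 23.8 and 23.8 CPM in cpn1∆, against 27.8, 30.8 and 31 CPM in WT. The cpn1∆ libraries were nearly alike, WT replicate 1 was the closest to them, and the genotypes did not overlap. The log2FC was -0.32 (SE 0.06, adjusted p = 0.00221), so that the level was 0.803 times that of WT.

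The scarcest member, pfl9, gave the least certain call. It encodes a DIPSY family glycoprotein and had 116, 115 and 192 counts in cpn1∆, against 206, 209 and 198 counts in WT. Scaled to library size these were 4.04, 3.67 and 5.88 CPM in cpn1∆, against 7.77, 6.67 and 6.21 CPM in WT. Replicate 3 of cpn1∆ stood apart from the other 2 and came close to the lowest WT library without reaching it. The log2FC was -0.58 (SE 0.16, adjusted p = 0.0237). The call was lost without cpn1∆ replicate 1 (log2FC -0.51, adjusted p = 0.0911), without cpn1∆ replicate 2 (-0.45, adjusted p = 0.109) and without WT replicate 1 (-0.50, adjusted p = 0.0876).

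No difference was detected for gsf2, the flocculin with the best described role. Its level was 75.6, 74.5 and 74 CPM in cpn1∆, against 73.4, 74.8 and 76.3 CPM in WT, from 1943.98 to 2433.97 counts in a library. The genotypes overlapped fully within less than 3 CPM. The log2FC was -0.0037, with a 95% interval from -0.076 to 0.069 and an adjusted p of 0.96. The interval is narrow and does not reach the log2FC of any called member. With a range as small as this, the features closest to gsf2 in profile, mrx11 (r = 0.993), osh41 (r = 0.974) and anp1 (r = 0.958), are a description of 6 libraries in which gsf2 hardly varied.

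The second member without a call, pfl4, is annotated as a flocculin. It had 36.2, 37.3 and 33.8 CPM in cpn1∆, against 40.3, 36.9 and 35.4 CPM in WT. The libraries interleaved. The log2FC was -0.067, with a 95% interval from -0.19 to 0.058 (adjusted p = 0.467).

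Outside the list, pfl6 had 3.76, 4.05 and 3.98 CPM in cpn1∆, against 4.45, 4.75 and 3.7 CPM in WT. Its genotypes overlapped, and the log2FC of -0.12 was not called (SE 0.14, adjusted p = 0.592).

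**Figure D2:**
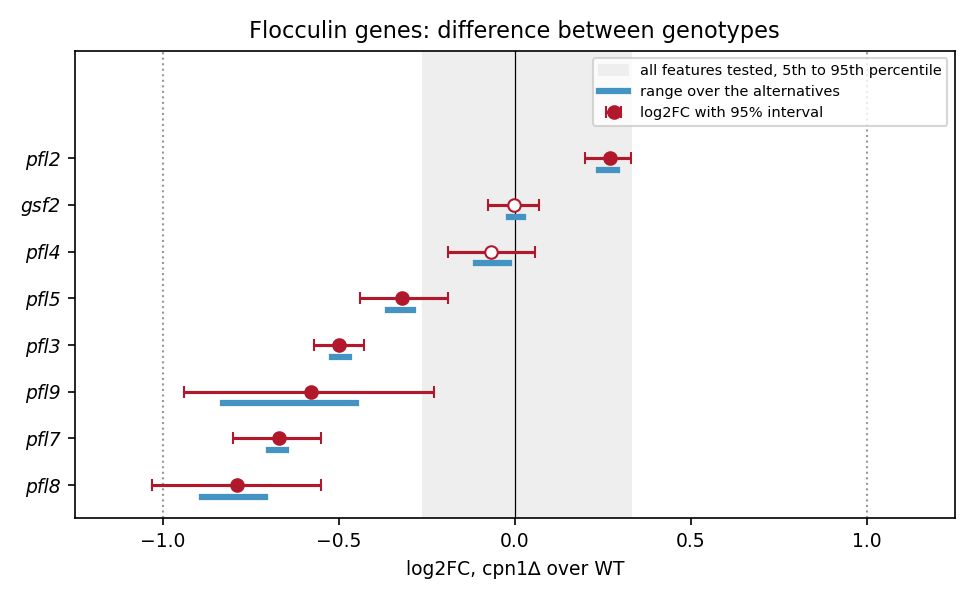
The log2FC of cpn1∆ over WT for each flocculin gene (points, filled where FDR is under 0.05) with its 95% interval, and in blue the range of the log2FC over 20 other settings of the analysis. The grey band holds all features tested from the 5th percentile (-0.26) to the 95th (0.33), the dotted lines mark the fold threshold of the study, and the points of pfl3, pfl5, pfl7, pfl8 and pfl9 lie to the left of the band.

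To compare levels between genes, the CPM was divided by the transcript length in kilobases. On this scale pfl2 stood at 195 ± 5.78 CPM per kb in cpn1∆ and 162 ± 1.4 in WT, and pfl3 at 51.5 ± 1.71 in cpn1∆ and 72.7 ± 2.19 in WT (SD, n = 3 each). These were the only members above the median protein-coding gene, which had 41.5 CPM per kb in cpn1∆ and 41.7 in WT over 4715 genes. In cpn1∆, pfl2 was within the top 13.1% of these genes and pfl3 within the top 42.7%, against the top 15.8% and 32.4% in WT. The other 6 members ranged from 3.57 to 13.1 CPM per kb in cpn1∆ and from 5.43 to 20.9 in WT.

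The order of the levels was nearly the same in both genotypes. It ran pfl2, pfl3, pfl7, gsf2, pfl4, pfl5, pfl8, pfl9 in cpn1∆ and pfl2, pfl3, pfl7, gsf2, pfl4, pfl8, pfl5, pfl9 in WT, so that pfl5 and pfl8 changed places. Neighbours in this order whose libraries overlapped were pfl8 and pfl9 in cpn1∆ and gsf2 and pfl4 in WT. The gap between pfl7 and gsf2 narrowed, at 13.1 ± 0.277 against 11 ± 0.116 CPM per kb in cpn1∆ and 20.9 ± 0.356 against 11 ± 0.218 in WT.

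Added up in CPM, in which long transcripts weigh more, the 8 genes gave a slightly higher total in cpn1∆, with a different make-up. The sum was 1173, 1222 and 1162 CPM in cpn1∆, against 1131, 1153 and 1130 CPM in WT, a ratio of 1.04, with every cpn1∆ library above every WT library. Without pfl2 the sum was 333 ± 6.53 CPM in cpn1∆ and 430 ± 8.99 CPM in WT (SD, n = 3 each), a ratio of 0.776. In CPM the higher level of pfl2 thus outweighed the lower sum of the other members. Per kilobase of transcript, pfl2 was at 195 CPM per kb in cpn1∆ and 162 in WT. On that scale pfl3 was at 51.5 in cpn1∆ and 72.7 in WT, and pfl7 at 13.1 and 20.9. A total per kilobase was not worked out, so the direction of the sum is given for CPM only.

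The share of pfl2 in the summed level was 71.6%, 72.1% and 71.8% in cpn1∆, against 62.1%, 61.9% and 62.8% in WT. That of pfl3 was 14.1% ± 0.0577 in cpn1∆ and 20.8% ± 0.451 in WT, whereas that of gsf2 was 6.3% ± 0.18 in cpn1∆ and 6.57% ± 0.153 in WT (SD, n = 3 each). The libraries of the genotypes did not overlap in the share of pfl2 or in that of pfl3. The remaining 5 members each held at most 3.57% in any library. Per kilobase of transcript the share of pfl2 was 66.1% ± 0.346 in cpn1∆ and 54.3% ± 0.608 in WT (SD, n = 3 each).

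**Figure D3:**
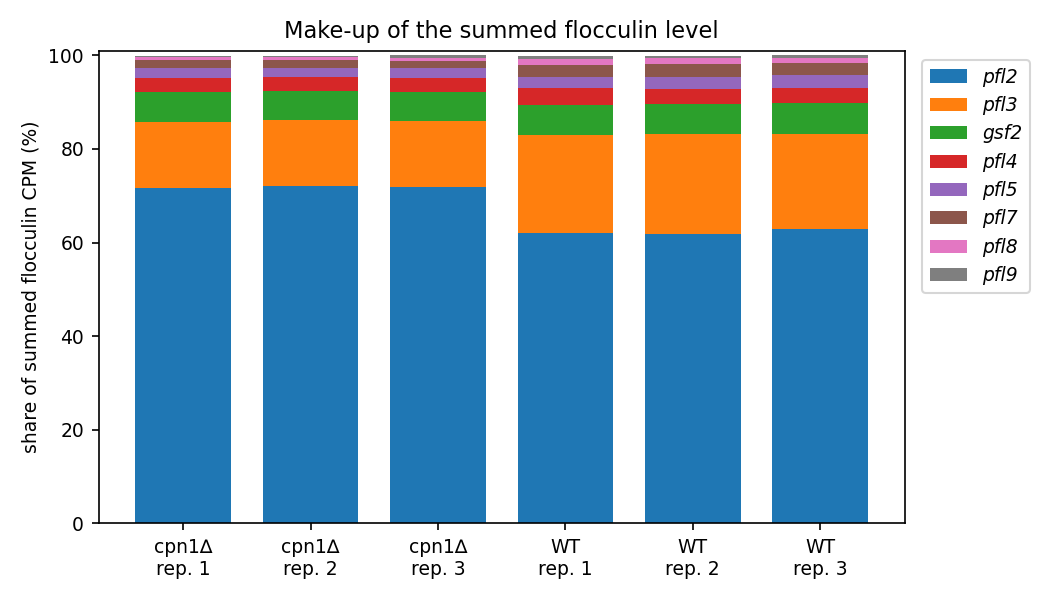
Share of each flocculin gene in the summed flocculin CPM, in percent, for each library of cpn1∆ (left) and WT (right). The pfl2 share is 71.6% to 72.1% in cpn1∆ and 61.9% to 62.8% in WT, and the pfl3 share is smaller in each cpn1∆ library than in any WT library.

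The members are spread over all chromosomes, and those that were lower lie mostly toward chromosome ends. In the reference assembly ASM294v3, pfl9 and pfl8 lie 50.2 kb and 99.8 kb from opposite ends of chromosome I. On chromosome II, pfl5 and pfl7 lie 114.2 kb and 117.9 kb from opposite ends. All 4 of these listed genes were called lower, beside 10.2% of all features. The share among all features at such distances from an end was not worked out. In the order of the features, pfl6, which is outside the list, stands between tlh1 and pfl8 on chromosome I. It was not called (log2FC -0.12, adjusted p = 0.592), and its distance from the end was not worked out. The other lower gene, pfl3, is 669.6 kb from an end of chromosome II. The uncalled genes pfl4 and gsf2 are on chromosome III, 956.5 kb and 959.2 kb from an end, and pfl2 is 1587.7 kb from an end of chromosome I.

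The surroundings of the members differed too. Within 20 kb on each side of pfl7, 8 of 17 features tested were lower and 0 were higher, with a median log2FC of -0.23. Around pfl5, 7 of 17 were lower and 0 higher (median -0.13). The lower calls of these 2 genes therefore stand in stretches in which many other features were also lower, beside the 10.2% of all features. Around pfl9, 2 of 12 were lower and 1 higher (median -0.28), and around pfl8 3 of 18 were lower and 2 higher (median -0.013), which is close to no shift. For pfl3, 1 of 13 was lower and 3 were higher (median -0.0021). For pfl2, 1 of 21 was lower and 2 were higher (median -0.009), for gsf2 2 of 18 were lower and 1 higher (median -0.037), and for pfl4 2 of 17 were lower and 0 higher (median -0.0027).

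Some of the features beside the called members were called as well. The gene downstream of pfl2 on the same strand, SPAPB18E9.05c, starts 112 bases beyond it and had 200, 202 and 205 CPM in cpn1∆, against 163, 154 and 152 CPM in WT. It was higher like pfl2, with a log2FC of 0.37 (SE 0.03, adjusted p = 2.28e-06). Counts of SPAPB18E9.05c were fractional in some libraries and those of pfl2 in all. The treatment of reads with several matches is not given, and whether SPAPB18E9.05c changed independently of pfl2 was not tested. Upstream of pfl3, on the opposite strand and 1213 bases away, the non-coding RNA SPNCRNA.322 moved against pfl3. It had 95.1, 97.1 and 82.1 CPM in cpn1∆, against 67, 67.9 and 63.2 CPM in WT, a log2FC of 0.47 (SE 0.06, adjusted p = 5.25e-05).

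The lower members pfl7, pfl8 and pfl5 each had a neighbour upstream that was lower too, beside 10.2% of all features called lower. The other lower members did not share this. SPNCRNA.284, upstream of pfl9, was not called (log2FC -0.079, adjusted p = 0.906), and SPNCRNA.322, upstream of pfl3, was higher. SPNCRNA.293, a non-coding RNA 1248 bases upstream of pfl7 on the opposite strand, had 6.78, 4.79 and 4.84 CPM in cpn1∆, against 10.2, 10.7 and 8.72 CPM in WT (log2FC -0.86, SE 0.14, adjusted p = 7.51e-04). The gene isp3, which encodes a protein of the spore surface, lies 2866 bases upstream of pfl8 on the same strand and had 14.3, 14.1 and 12.6 CPM in cpn1∆, against 19, 21.4 and 20.9 CPM in WT (log2FC -0.59, SE 0.08, adjusted p = 1.46e-04). Upstream of pfl5, the Tf2 retrotransposon copy Tf2-11 had a log2FC of -0.41 (SE 0.10, adjusted p = 0.0133). Its counts were fractional and near-identical Tf2 copies exist, which makes its value uncertain. The gene on the other side of pfl8, pdc101, a pyruvate decarboxylase gene that is among the most highly expressed in the cell, did not pass the test (log2FC -0.12, adjusted p = 0.142).

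Beside the uncalled members there was 1 call. The pseudogene SPCC188.10c, upstream of pfl4, had a log2FC of -0.17 (SE 0.04, adjusted p = 0.017), whereas ubp5 downstream of pfl4 had -0.087 (adjusted p = 0.0529). SPNCRNA.1164, upstream of gsf2, had a log2FC of -0.19 and did not pass the test (adjusted p = 0.448). The other adjacent or overlapping features did not pass either, or were not tested. Among them were SPNCRNA.292 by pfl7 (log2FC -0.76, adjusted p = 0.0565), cao2 by pfl5 (-0.33, adjusted p = 0.286), frp2 by pfl3 (-0.18, adjusted p = 0.243), and SPNCRNA.954 and SPNCRNA.1201, which overlap pfl2 and pfl4 (-0.18 and 0.39, adjusted p = 0.669 and 0.472).

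**Figure D4:**
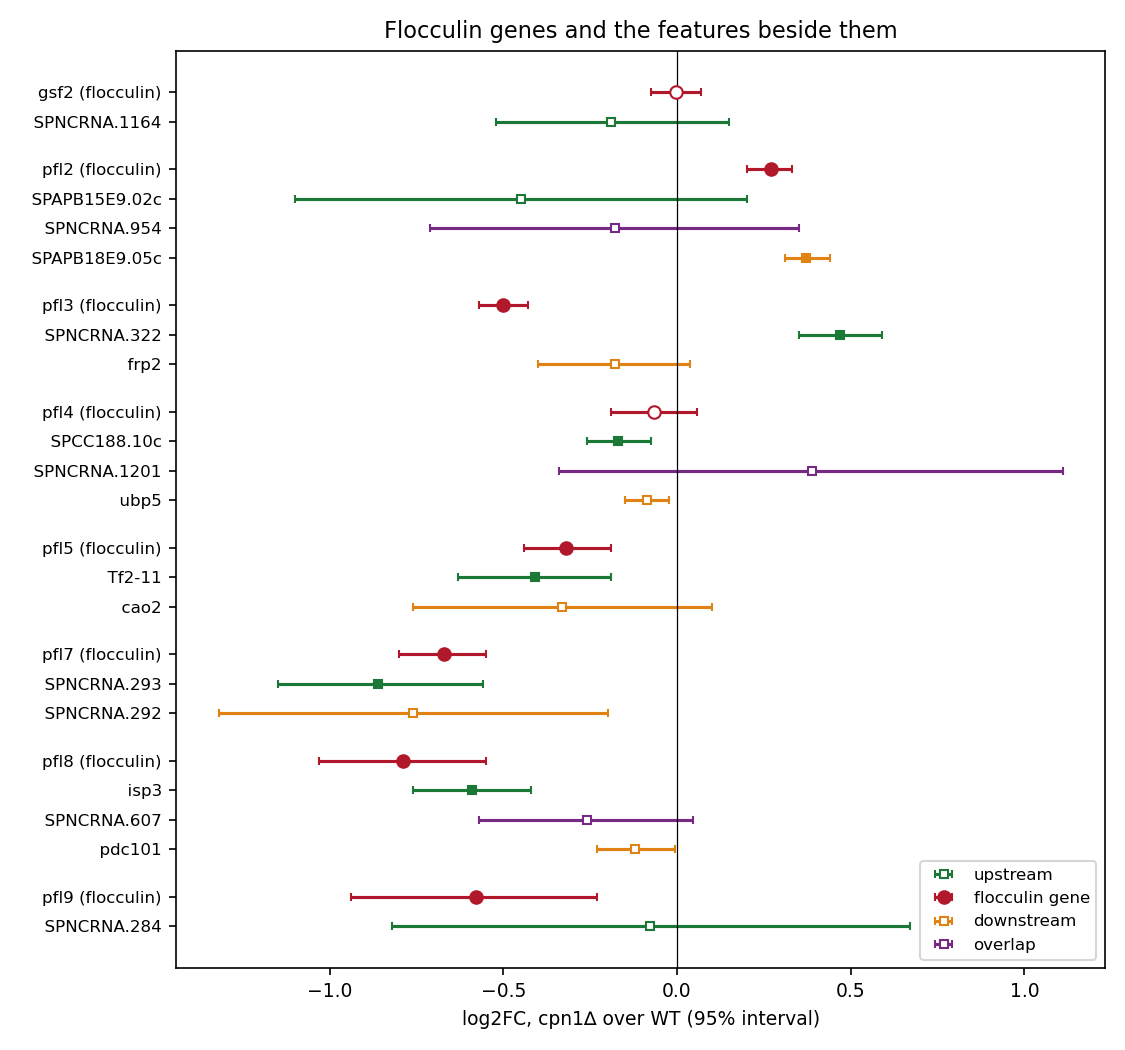
The log2FC of cpn1∆ over WT with its 95% interval for each flocculin gene (red circles) and for the annotated features tested next to it or overlapping it (squares: green upstream, orange downstream, purple overlapping), with filled symbols where FDR is under 0.05. The neighbours SPAPB18E9.05c, SPNCRNA.293 and isp3 lie on the same side of 0 as pfl2, pfl7 and pfl8, and SPNCRNA.322 lies on the other side from pfl3.

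Genes known to control flocculation were called at a share not far from that of all features. Of 17 regulators tested, 1 was higher and 1 was lower, or 5.88% each way beside 8.36% higher and 10.2% lower over all features. At an unadjusted p under 0.05 there were 10 of the 17 (58.8%), beside 31.4% of all features. Among the activators, the MADS-box gene mbx2 was barely expressed, at 1.67, 1.82 and 2.54 CPM in cpn1∆, against 2.68, 3.35 and 2.23 CPM in WT. The genotypes overlapped, and its log2FC of -0.44 had a 95% interval from -0.90 to 0.017 (adjusted p = 0.175), which also covers a decrease of the size measured for pfl3. The second main activator, cbf12, had a log2FC of -0.13 (SE 0.05, adjusted p = 0.0828).

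The lower regulator was adn2, a transcription factor needed for adhesion. Its level was 85, 87.4 and 88.3 CPM in cpn1∆, against 92.2, 98.9 and 92.7 CPM in WT. The libraries did not overlap, but the log2FC was only -0.12 (SE 0.04, adjusted p = 0.0285). The activators sre2 (0.12, adjusted p = 0.0529) and yox1 (0.16, adjusted p = 0.0614) did not pass, nor did adn3 (-0.0036) and ldb1, also named adn1 (0.0078).

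None of the 6 repressors (0) passed the test, beside 18.6% of all features, and 3 of them (50%) had an unadjusted p under 0.05, beside 31.4%. Their log2FC ran from -0.088 in tup11 (adjusted p = 0.0948) to 0.09 in ssn6 (adjusted p = 0.0542), with gsf1, cbf11, lkh1 and tup12 between them. In the Cdk8 module, srb8 was higher at 96.4, 92.3 and 99.5 CPM in cpn1∆, against 92, 87.5 and 87.1 CPM in WT (log2FC 0.11, SE 0.04, adjusted p = 0.0476). Its genotypes nearly touched. The other members of the module were on the lower side and did not pass: med13 (-0.19, adjusted p = 0.0502), srb11 (-0.13, adjusted p = 0.0624) and the kinase gene srb10 (-0.073). These counts shifted with the settings of the analysis. The number of higher regulators was 0 with DESeq2 and 4 when libraries were scaled by total counts only, and the number of lower regulators was 2 and 0 under the same settings.

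**Figure D5:**
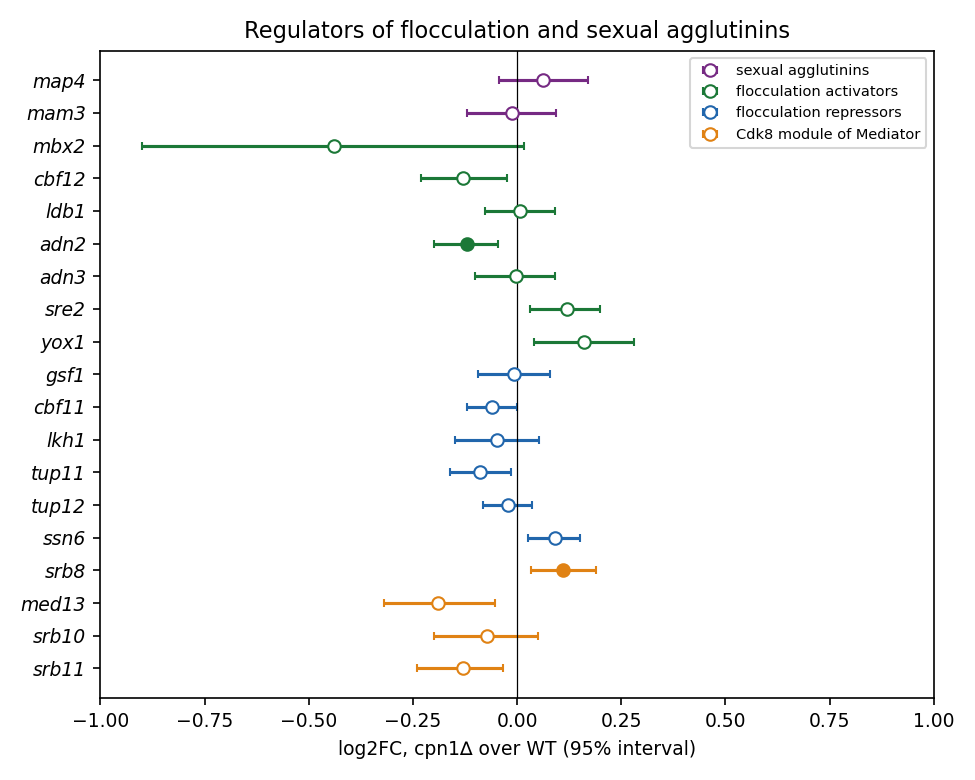
The log2FC of cpn1∆ over WT with its 95% interval for sexual agglutinin genes (purple), activators (green) and repressors (blue) of flocculation and the Cdk8 module (orange), with filled points where FDR is under 0.05. Only adn2 (-0.12) and srb8 (0.11) are filled, and mbx2 has the widest interval.

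The 2 genes for adhesins of another kind gave no call, beside 18.6% of all features called in either direction. The agglutinins map4 and mam3, by which cells of opposite mating type adhere before mating, had a log2FC of 0.063 (adjusted p = 0.423) and -0.012 (adjusted p = 0.897). The level of map4, known as the agglutinin of the plus mating type, was 34.9 ± 1.27 CPM in cpn1∆ and 33.4 ± 0.603 CPM in WT (SD, n = 3 each). Transcripts of mam3, known as that of the minus type, were also detected, at 39.4 ± 1.74 CPM in cpn1∆ and 39.7 ± 1.05 CPM in WT (SD, n = 3 each), although both strains are labelled h+.

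Among genes that build the wall in which flocculins are anchored, the calls were mostly upward, though most genes did not pass the test. Of 28 genes of glucan synthesis and remodelling tested, 7 were higher (25%, beside 8.36% of all features) and 1 was lower (3.57%, beside 10.2%). The other 20 were not called, and the median log2FC was 0.065, beside 0.0062 for all features. An unadjusted p under 0.05 was found for 15 of the 28 (53.6%), beside 31.4% of all features. Every cpn1∆ library lay above every WT library for 15 of the 28, beside 17.3% of all features, and below for 4, beside 18.1%. Among the genes called, large changes were those in the alpha-glucan synthase homologue gene mok12 (0.18), the glucanosyltransferase gene gas4 (0.15) and the endoglucanase gene eng2 (-0.14). These are smaller than the change of pfl2, whereas psu2, a scarce transcript at 0.666 ± 0.0647 CPM in cpn1∆ and 0.979 ± 0.194 CPM in WT (SD, n = 3 each), had a log2FC of -0.57 that was not called (adjusted p = 0.162). Of 18 genes that make and attach the glycosylphosphatidylinositol anchor, 0 were higher, beside 8.36% of all features, and 1 was lower (5.56%, beside 10.2%), gpi7 (-0.16, adjusted p = 0.0149). At an unadjusted p under 0.05 there were 3 of the 18 (16.7%), beside 31.4% of all features.

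Of 27 genes for the galactose and mannose residues of the cell surface, which include the sugars that Gsf2 binds, 3 were higher and 3 were lower, with a median log2FC of 0.024. At 11.1% each way this was close to the 8.36% and 10.2% over all features. Among the genes called, the largest change was in gal7, a gene of galactose metabolism, at 17.7 ± 1.6 CPM in cpn1∆ and 22 ± 1.37 CPM in WT (SD, n = 3 each), a log2FC of -0.32 (adjusted p = 0.012). Next among the genes called came gmh3 (0.16), gmh6 (-0.11) and pvg2 (-0.11), which are known or predicted glycosyltransferase genes. Uncalled members of the list ran from -0.34 in otg2 (adjusted p = 0.52) to 0.47 in gal10 (adjusted p = 0.332).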

How the data were processed

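The authors deposited expected counts per feature, with 1 column per library. Per the labels and the study's methods, polyA-selected paired reads were trimmed with Cutadapt 4.8, aligned with STAR 2.7.10b to ASM294v2 and counted with featureCounts, and the authors tested the counts with edgeR 3.42.4. The strand setting of the counting and the treatment of reads with several matches are not given in those sources. Counts were fractional for 760 features, among them gsf2, pfl2, pfl3 and pfl8, and were rounded. A row called other, with 0.608% to 0.647% of each library, names no gene and was left out.

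Genotypes were compared with edgeR 4.0.16 in R 4.3.3 (TMM, filterByExpr with a minimum count of 10, glmQLFit with legacy set to FALSE, glmQLFTest), with Benjamini-Hochberg adjustment. The SE was obtained by dividing the absolute log2FC by the square root of F. Names, transcript lengths, strands, neighbours and distances come from RefSeq for ASM294v3, which matched 6862 of 7268 features, so no coordinates are given. Replicates of a genotype differed by more than sampling noise (chi-square per gene of 4.68 to 11).

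Genes named are the 8 members, the regulators and agglutinins, up to 4 called members of each other list with the largest absolute log2FC, the features overlapping or next to a member, the 3 features most correlated with gsf2 on log2 CPM (prior count 2), and cpn1. A list member that falls under this rule is not reported here. The genes pfl6, psu2, otg2 and gal10 fall outside the rule and were chosen after their values were seen. The members and lists were chosen with earlier results of these data known. The names crf1, crf2, rfl1, pig-m and pvg4 were dropped from the lists after the table was seen, because they matched no feature, an unrelated feature or a gene already listed. Alternatives were other scalings (RLE, upper quartile, total counts), other low-count filters, DESeq2 1.42.0, limma voom (limma 3.58.1), edgeR's legacy, robust and exact tests, protein-coding genes only, a block for the replicate number, omission of each library in turn and, added after the data were seen, unrounded counts. ChIP and RT-qPCR experiments of the study were not analysed here.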

Additional observations from a re-analysis of the deposited data

How the results depend on the processing

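The calls for pfl2, pfl3, pfl5, pfl7 and pfl8 held in all 20 alternatives, and gsf2 and pfl4 were called in none of them. With 1 library left out, pfl9 ran from -0.83 to -0.45 (adjusted p from 0.00261 to 0.109), and in the other alternatives its adjusted p was 0.00272 to 0.0265. The gsf2 estimate, which is near 0, changed sign at 0.0061 with upper quartile scaling and 0.022 with total counts, and ran from -0.017 to 0.0082 with 1 library left out. The median log2FC of the family was -0.43 to -0.38 and the ratio of the summed CPM 1.03 to 1.06 over the alternatives.

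The number of higher regulators was 0 with RLE scaling, without a low-count filter, with at least 10 counts in every library, with DESeq2, and with the legacy and exact tests. It was 2 with at least 1 CPM in 3 libraries and the robust test, 3 with upper quartile scaling and with protein-coding genes only, and 4 with total counts. The number of lower regulators was 0 with total counts and 2 with RLE scaling, no filter, DESeq2, limma voom, the robust and exact tests and protein-coding genes only. With 1 library left out both numbers ran from 0 to 2. For each of these changes the cause was not tested.

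Libraries with the same replicate number showed little tendency to deviate together (r of -0.0547, 0.0454 and 0.0865). With 3 libraries per genotype, each taken as a deviation from its group mean, this check cannot decide whether the numbers pair the samples. According to the study, the replicates of the genotypes were handled in parallel. With the replicate block 1226 features were called, against 1081 without it, no flocculin call changed, and the regulators came to 2 higher and 3 lower.

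Over all alternatives 750 to 1226 features were called, the fewest with 1 library left out. With 3 cultures of 1 strain per genotype, the p-values measure the spread between cultures only. Low counts limit the precision for scarce transcripts such as pfl9 and mbx2, and transcript lengths from ASM294v3 affect the comparison of levels between genes but not the log2FC.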
